A study of Mus musculus with 11 samples.

Results

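Mitosis and spindle genes were followed in C2C12 cells, a mouse myoblast line that divides in rich medium and stops dividing and fuses into myotubes when serum is withdrawn. The set holds 37 genes of 20368 gene symbols in the expression tables, chosen by name from known roles in mitosis, with earlier results of these data known, and all 37 were measured in every RNA library. They were grouped by role as 8 kinases and cyclins, 15 genes of the kinetochore, spindle checkpoint and chromosomal passenger complex, 11 genes of spindle motors, spindle microtubules and cytokinesis, and 3 genes outside these groups (Mki67, Top2a and Foxm1). The study examined RNA made at the distal regulatory region (DRR) upstream of the MyoD gene. PolyA RNA came from 4 kinds of cells, all kept for 4 h in differentiation medium containing 2% horse serum: DRRi, in which the DRR RNA was targeted by RNA interference, its control GFPi, in which GFP was targeted, pHAN_DRR1.2, which overexpressed DRR RNA, and its control pHAN_GFP, which overexpressed GFP. Chromatin immunoprecipitation gave peak lists for the muscle transcription factor MyoD in proliferating myoblasts in 10% fetal bovine serum (MB_MyoD) and in myotubes at 48 h of differentiation (MT_MyoD). Further lists held MyoG in those myotubes (MT_MyoG) and domains of the enhancer mark H3K4me1 at both stages (MB_H3K4me1, MT_H3K4me1). All cells are of this 1 line, of C3H strain origin per the labels, and every group is 1 sample with 1 set of values, so the spread between replicates is unknown for every difference given here.

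A dividing cell commits to mitosis when cyclin B binds and activates the kinase Cdk1. Plk1 and the Aurora kinases then drive assembly of the spindle, kinetochores attach each chromosome to spindle microtubules, and the checkpoint holds back the anaphase-promoting complex and its activator Cdc20 until attachment is complete. Most of these genes are transcribed late in the cell cycle through promoter elements called CHR (cell cycle genes homology region), bound by the MuvB complex together with B-Myb and Foxm1, and CCAAT boxes, bound by NF-Y. In resting cells the same CHR elements are bound by the repressive DREAM complex, to which the p53 target p21 contributes. Myoblasts leave the cell cycle for good as they differentiate, and loss of mitotic gene expression is part of that exit.

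The promoters are shown first because they carry the feature that most members share and that their choice did not use. RefSeq promoter sequences (build GRCm38.p6, 250 bases before to 50 bases after each transcript start) matched 31 of the 37 genes, and Aurkb, Ccna2, Foxm1, Incenp, Kif20a and Tpx2 had no entry. The 150 bases before the start are printed below for 8 genes, with CHR letters (TTTGAA or TTCGAA) and CCAAT letters in capitals, each on either strand, so that TTCAAA and ATTGG are their reverse forms. Cdk1, Cdc20, Kif11 and Top2a hold both elements in this stretch, Ccnb1, Ccnb2 and Plk1 hold CCAAT letters alone, and Mad2l1 holds neither.
Cdk1 (GRCm38.p6 chr10:69352913-69353062, minus strand): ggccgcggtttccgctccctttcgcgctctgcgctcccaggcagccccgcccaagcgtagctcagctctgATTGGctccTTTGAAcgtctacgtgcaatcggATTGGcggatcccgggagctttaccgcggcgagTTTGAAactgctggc
Ccnb1 (GRCm38.p6 chr13:100786487-100786636, minus strand): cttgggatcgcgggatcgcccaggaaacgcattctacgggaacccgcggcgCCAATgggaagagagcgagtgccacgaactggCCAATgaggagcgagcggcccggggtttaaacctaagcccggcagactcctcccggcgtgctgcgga
Ccnb2 (GRCm38.p6 chr9:70421555-70421704, minus strand): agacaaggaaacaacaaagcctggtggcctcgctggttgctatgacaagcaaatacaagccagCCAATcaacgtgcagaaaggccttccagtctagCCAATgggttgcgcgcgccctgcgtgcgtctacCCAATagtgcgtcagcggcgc
Plk1 (GRCm38.p6 chr7:122159285-122159434, plus strand): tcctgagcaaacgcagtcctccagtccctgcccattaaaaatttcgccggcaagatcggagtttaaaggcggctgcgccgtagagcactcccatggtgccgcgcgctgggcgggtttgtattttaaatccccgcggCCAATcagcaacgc
Cdc20 (GRCm38.p6 chr4:118437344-118437493, minus strand): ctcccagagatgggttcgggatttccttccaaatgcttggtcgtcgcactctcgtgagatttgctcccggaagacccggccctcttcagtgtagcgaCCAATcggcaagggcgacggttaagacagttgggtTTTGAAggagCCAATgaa
Kif11 (GRCm38.p6 chr19:37376232-37376381, plus strand): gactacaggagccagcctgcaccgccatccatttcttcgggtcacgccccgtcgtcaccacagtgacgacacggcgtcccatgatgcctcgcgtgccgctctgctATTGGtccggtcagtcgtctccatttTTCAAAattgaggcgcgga
Top2a (GRCm38.p6 chr11:99024190-99024339, minus strand): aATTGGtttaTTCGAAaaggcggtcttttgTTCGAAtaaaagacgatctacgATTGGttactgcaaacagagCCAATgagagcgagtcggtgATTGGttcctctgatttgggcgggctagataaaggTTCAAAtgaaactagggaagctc
Mad2l1 (GRCm38.p6 chr6:66535071-66535220, plus strand): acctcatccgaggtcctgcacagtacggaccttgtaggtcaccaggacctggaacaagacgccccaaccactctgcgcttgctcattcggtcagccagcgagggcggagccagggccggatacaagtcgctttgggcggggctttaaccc

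The CHR letters TTTGAA occurred in the promoter window of 23 of the 31 genes (74.2%), against 20.2% of the 27025 genes with a promoter sequence and 13.7% of the 7841 of those that were expressed here. From 60 bases before the start onward they occurred in 21 genes (67.7%), against 6.36% of all genes. Ccnb2 and Plk1 belong here, with TTTGAA beginning at positions 5 and 31 counted from the start, after the stretches shown. The second form, TTCGAA, was found in Bub1, Bub1b and Top2a (9.68% of members, 1.8% of all genes, 2.51% of expressed genes). CCAAT letters occurred in 24 of 31 genes (77.4%, against 41.1% of all genes and 43.6% of expressed genes). Of the 31 genes, 17 held 2 or more (54.8%, against 13.3% and 17.2%). CHR TTTGAA and CCAAT stood together in the promoters of 20 genes (64.5%), against 7.97% of all genes and 5.74% of expressed genes. Birc5, Mad2l1, Nuf2 and Nusap1 held neither CHR form and no CCAAT in this window. These 4 are 12.9% of the 31 genes, against 46.9% of all genes and 48.5% of expressed genes. Each motif was counted on its own, also where its letters overlapped another's.

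The letters of E-boxes, the sites of MyoD and MyoG, were not more frequent in these promoters than elsewhere. CAGCTG occurred in Birc5, Bub3, Cenpe and Ttk (12.9%, against 18.3% of all genes) and CAGGTG in Ect2 and Nusap1 (6.45%, against 22.6%). Neither E2F form searched, TTTGGCGC or GGCGGGAA, was found in a member, and these letters occurred in 0.585% and 2.52% of all genes. A match is a description of letters, and a missing match says only that these letters are not in this window.

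**Figure D1:**
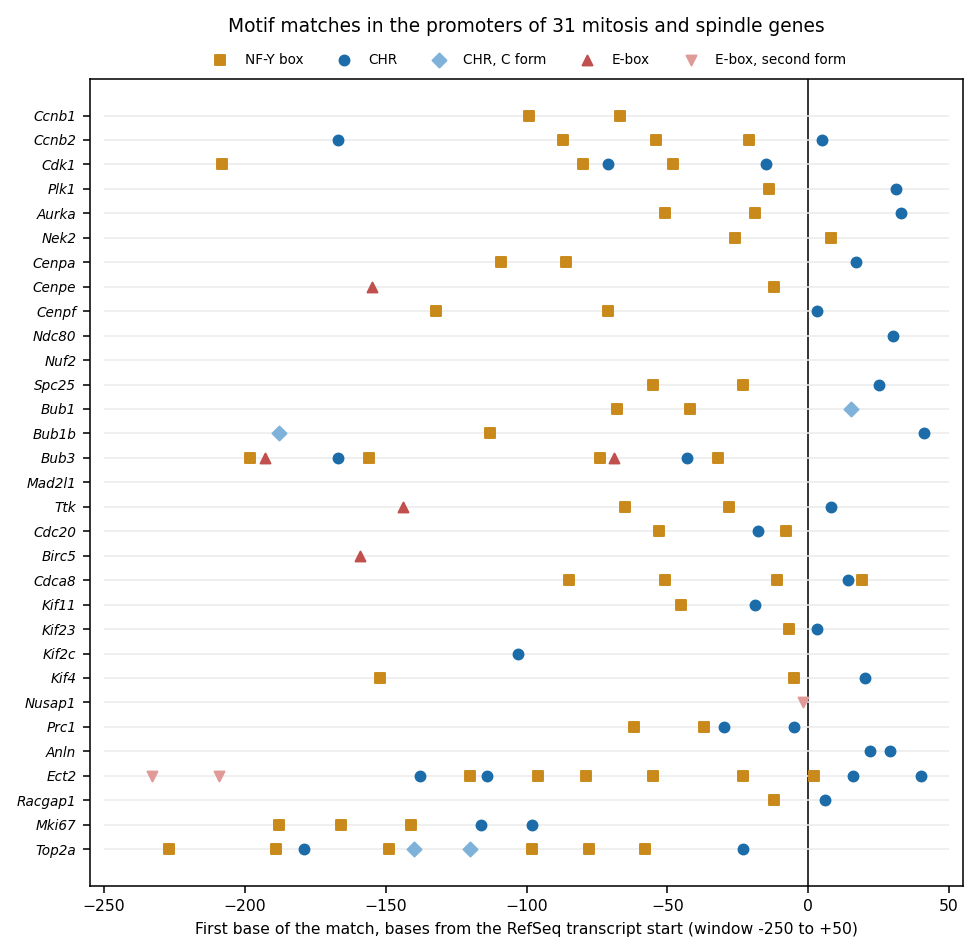
First base of each motif match (x axis, bases from the RefSeq transcript start, from 250 before to 50 after it) in the promoters of 31 mitosis and spindle genes (rows); squares (NF-Y box) are CCAAT letters, circles and diamonds are TTTGAA and TTCGAA, upward and downward triangles are CAGCTG and CAGGTG, and the genes with 2 starts (Bub3, Ect2, Prc1) have their matches drawn from each start. CHR matches gather around the start, in 21 genes from 60 bases before it onward, with a median first base of 3, and the median first base of CCAAT letters is -62.0.

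All members were expressed 4 h into differentiation. In GFPi their levels ran from 21 FPKM (fragments per kilobase of transcript scaled to the mapped fragments of a library, summed over the coding sequences of a gene) for Kif4, a chromosome-bound kinesin, to 159.3 for Top2a, the topoisomerase that untangles sister chromatids. The median was 50.3 FPKM in GFPi and 52.1 in DRRi, and the median member stood above 86.2% and 87.0% of the genes expressed in those libraries. In the overexpression experiment the median was 20.8 FPKM in pHAN_GFP and 24.2 in pHAN_DRR1.2, at percentiles 67.4 and 71.6. The genes with the highest level within their role groups were cyclin A2 (Ccna2), survivin (Birc5), the cytokinesis regulator Racgap1 and Top2a. Cyclin B1 (Ccnb1) exceeded Ccna2 in DRRi alone. Kif4 had the lowest level in GFPi and DRRi. Ttk, the checkpoint kinase Mps1, had the lowest in the overexpression experiment, at percentile 33.4 in pHAN_GFP and 36.2 in pHAN_DRR1.2.

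The 2 control libraries differed more from each other in these genes than either did from its own treated library. Each of the 37 genes had a higher FPKM in GFPi than in pHAN_GFP, by a median ratio of 2.54, where the 10398 genes kept in both tables had a median ratio of 1.03 and 54.9% were higher in GFPi. The ratio was smallest for Bub3 (1.33), which also acts outside mitosis, and for Foxm1 (1.95), and largest for Ect2 (3.25), the exchange factor that starts the cleavage furrow, Kif11 (3.14), the motor that separates spindle poles, and the proliferation marker Mki67 (3.12). This difference between the controls was not particular to the members. Every DNA replication gene listed for comparison below was also higher in GFPi, such as Mcm2 (49.2 against 24.2 FPKM) and Pcna (285.8 against 146.1). Among the other mitotic genes given below, Anapc2, Anapc10, Anapc11 and Cdc26 were lower in GFPi and Kif3a was equal. The rest of those measured were higher in GFPi. The tables were normalized separately, the experiments used different constructs and the libraries are single, so the values are set side by side and not tested. Myog, the driver of terminal differentiation, stood at 10.2 FPKM in GFPi and 26.3 in pHAN_GFP, and Cdkn1a, which encodes p21, at 71.1 and 150. The part of these genes in the levels of the mitotic genes was not tested. In bulk RNA, fewer cells in the dividing state and less of these RNAs per cell cannot be told apart. The order of the members was nearly the same in the 2 controls (Pearson r 0.95 and Spearman rho 0.95 on log2 of FPKM + 1 across 37 genes, as a description).

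**Figure D2:**
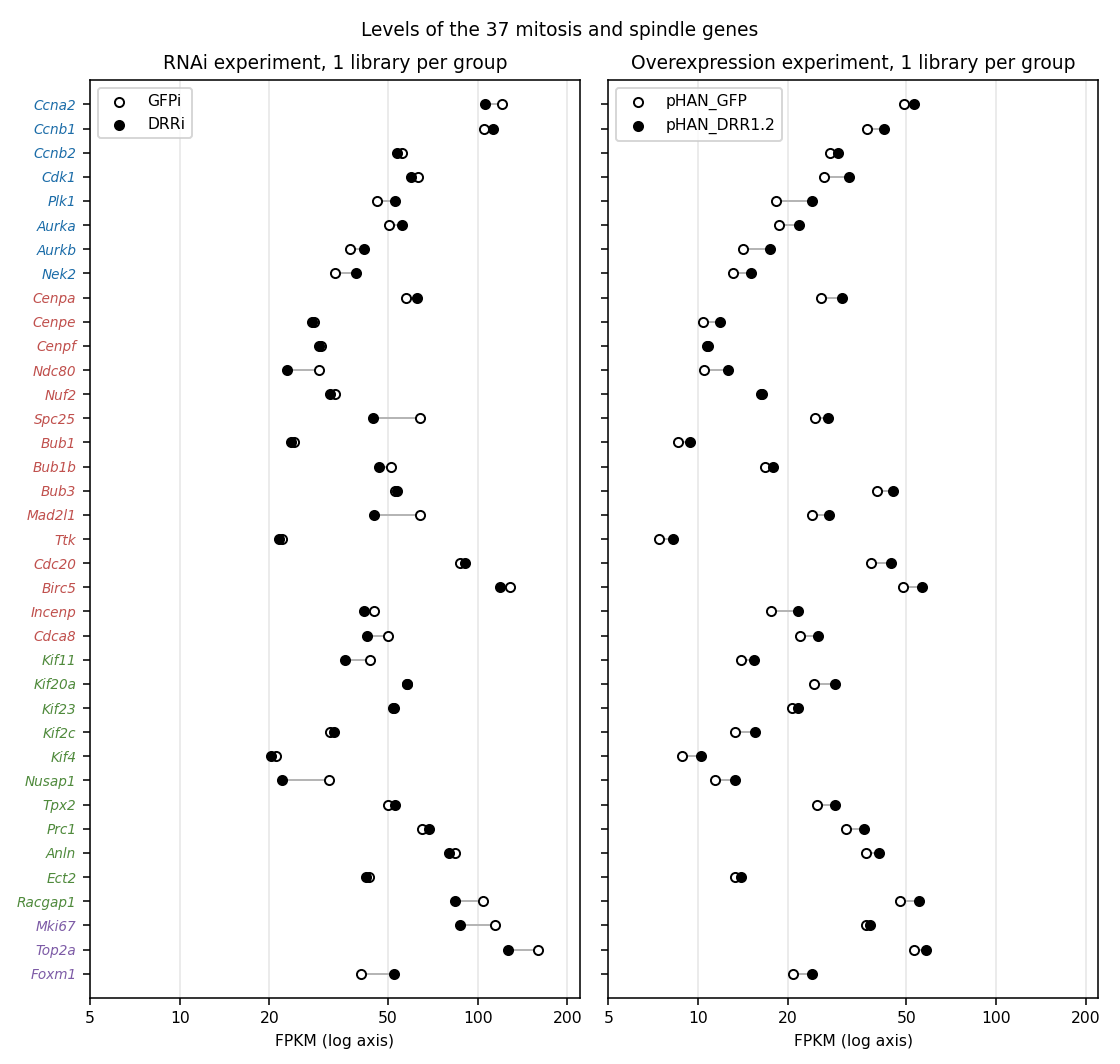
FPKM (log axis) of each of the 37 mitosis and spindle genes in the RNAi experiment (left) and the overexpression experiment (right), with open circles for the GFP control, filled circles for the treated library and 1 library per group. The genes lie between 20.3 and 159.3 FPKM on the left and between 7.4 and 58.0 on the right, in tables normalized separately.

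DRRi was first set against GFPi, which addresses whether these genes respond to loss of the DRR RNA. None of the 37 reached 1.5-fold in either direction, where 4.66% of the 10577 genes kept (mean of both conditions at 1 FPKM or more) were 1.5-fold or more higher and 3.5% lower. The members' log2 changes, DRRi over GFPi with a pseudocount of 1, ran from -0.51 to 0.36 with a median of -0.03, beside a median of 0.02 for all genes kept. Of the members 12 lay above 0 and 25 below, where 53.5% of all genes kept lay above 0 and 46.5% below. All genes kept include many of lower level than the members. Among the 3217 genes with a level inside the members' range, the median was -0.01 and 48.2% lay above 0. Of these 3217 genes, 6.5% were past 1.5-fold in either direction, against 8.16% of all genes kept. Of the members, 0 had in the authors' deposited table a q-value under 0.05 (1.22% of all genes kept did), and 0 had an unadjusted p-value under 0.05, where 7.75% of all genes kept did. With 1 library on each side, the values that follow describe these libraries.

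Kinases and cyclins had a median log2 change of 0.12, with 5 of 8 above 0. Nek2, a kinase of centrosome separation, had 33.1 FPKM in GFPi and 39.1 in DRRi (log2 change 0.24). Plk1 (chromosome 7, 129302950 to 129313389, mm9), the kinase of mitotic entry and spindle assembly, was at 53 against 46.1 FPKM (0.20). The kinases Aurkb, at 41.4 against 37.3 FPKM (0.15), and Aurka, at 55.6 against 50.3 (0.14), stood on the same side. Cdk1 and the cyclins had values from -0.19 to 0.09. Cdk1 itself was at 59.9 against 63.2 FPKM (-0.08), Ccnb1 at 112.4 against 105.3 (0.09), Ccnb2 at 53.7 against 55.8 (-0.05) and Ccna2 at 106.0 against 120.9 (-0.19).

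The transcription factor gene Foxm1 (chromosome 6, 128313011 to 128335162), whose product activates many genes of this set, had the highest change of all members, with 40.5 FPKM in GFPi and 52.3 in DRRi (0.36). In the same small group Mki67 was at 87.4 against 114.7 FPKM (-0.39) and Top2a at 126.7 against 159.3 (-0.33). Mki67 and Top2a therefore lay below GFPi while Foxm1 lay above it, each by less than 1.5-fold.

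Kinetochore, checkpoint and passenger genes had a median of -0.06, with 12 of 15 below 0. The lowest values of the whole set were here. Spc25 (chromosome 2, 69031951 to 69044247), a subunit of the Ndc80 complex that grips microtubules, was at 44.7 FPKM against 64.0 in GFPi (-0.51). Mad2l1 (chromosome 6, 66485461 to 66490985), which encodes the checkpoint protein Mad2, was at 44.8 against 63.8 FPKM (-0.50), and in the authors' deposited table it had the lowest p-value of the members, 0.0795, with a q-value of 0.823. The values within the Ndc80 complex were uneven. Ndc80 was at 23.0 against 29.3 FPKM (-0.33) and its partner Nuf2 at 31.9 against 33.3 (-0.06). The passenger subunits Cdca8 (42.6 against 50 FPKM, -0.23), Birc5 (119.0 against 128.8, -0.11) and Incenp (41.6 against 44.8, -0.10) lay below GFPi, on the other side from their kinase Aurkb. Cenpa, the histone variant of centromeres, was the highest of this group, at 62.4 against 57.7 FPKM (0.11). The checkpoint genes Bub1, Bub3 and Ttk and the kinetochore genes Cenpe and Cenpf were within 0.03 of 0, Cdc20 was at 0.05 and Bub1b at -0.13.

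Genes of motors, spindle and cytokinesis had a median of -0.03, with 8 of 11 below 0. Nusap1 (chromosome 2, 119435267 to 119475896), a microtubule-bundling protein, was the lowest, with 31.6 FPKM in GFPi and 22.1 in DRRi (-0.49). Racgap1 was at 84.1 against 103.9 FPKM (-0.30), while Kif23, the kinesin with which it forms the centralspindlin complex, was at 52.1 against 52.5 (-0.01). Kif11 was at 36.0 against 43.6 FPKM (-0.27). The remaining motors were close to 0, with Kif2c, a microtubule depolymerase, at 0.04, Kif20a at -0.01 and Kif4 at -0.04. So were Prc1, which bundles midzone microtubules (0.08), the spindle assembly factor Tpx2 (0.07), Ect2 (-0.03) and the cleavage-furrow scaffold Anln (-0.07).

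The overexpression experiment addresses the response to added DRR RNA. Of the 37 genes, 36 lay above 0 in pHAN_DRR1.2 against pHAN_GFP, where 55.6% of the 10699 genes kept did and 44.4% lay below, and the changes were small and alike in size. The log2 changes ran from -0.01 to 0.39 with a median of 0.19, beside 0.02 for all genes kept. The range from the lower to the upper quartile was 0.13 to 0.21 for members and -0.07 to 0.12 for all genes kept. None of the 37 reached 1.5-fold, where 1.38% of all genes kept were 1.5-fold or more higher and 0.654% lower. Among the 5735 genes with a level inside the members' range, the median was 0.02, 56% lay above 0 and 1.29% were past 1.5-fold. By the authors' deposited table, 0 members had a q-value under 0.05 (1.57% of all genes kept did) and 1, Plk1, had an unadjusted p-value under 0.05, where 5.9% of all genes kept did.

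Plk1 was the highest member in this experiment, at 24.2 FPKM in pHAN_DRR1.2 against 18.3 in pHAN_GFP (0.39), with a p-value of 0.0396 and a q-value of 0.764 in the authors' deposited table. Kinases and cyclins were all above 0, with a median of 0.20. Aurkb was at 17.4 against 14.2 FPKM (0.27) and Cdk1 at 32.0 against 26.5 (0.26). Unlike in DRRi, the other passenger subunits stood with Aurkb. Incenp was at 21.6 against 17.6 FPKM (0.28), Birc5 at 56.5 against 48.7 (0.21) and Cdca8 at 25.2 against 21.9 (0.20). Aurka was at 0.21, Ccnb1 at 0.19, Nek2 at 0.18, Ccna2 at 0.12 and Ccnb2 at 0.08.

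The other kinetochore and checkpoint genes had log2 changes between -0.01 and 0.23. Ndc80 was at 12.6 against 10.5 FPKM (0.23) and Cenpa at 30.3 against 25.8 (0.23). Mad2l1 (0.18) and Spc25 (0.14), the lowest members in DRRi, lay inside the members' common range here. Nuf2 was the only member below 0, at 16.3 against 16.4 FPKM (-0.01), and Cenpf, at 10.8 against 10.7 FPKM (0.02), was next to it. For Bub1, a checkpoint kinase of the kinetochore, the authors' deposited table lists both coding sequences with the status FAIL. Its coding sequences went opposite ways there (1.78 against 8.32 FPKM and 7.59 against 0.221), and their sum was at 9.36 against 8.54 FPKM (0.12).

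Motors, spindle and cytokinesis genes were all above 0, with a median of 0.19. Kif20a, the kinesin of the central spindle, was at 28.8 FPKM against 24.5 (0.22), Nusap1 at 13.3 against 11.4 (0.21) and Racgap1 at 55.1 against 47.5 (0.21). Ect2 (0.06) and Kif23 (0.07) had the smallest values of this group. Foxm1 was at 24.1 against 20.8 FPKM (0.20) and Top2a at 58.0 against 53.1 (0.13). Mki67, at 37.8 against 36.7 FPKM (0.04), was among the 5 lowest members in both experiments.

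Set side by side, 24 genes lay below 0 in DRRi and above 0 in pHAN_DRR1.2, 12 lay above 0 in both and 1, Nuf2, below 0 in both. Because 36 of the 37 lay above 0 in pHAN_DRR1.2, these counts follow almost wholly from the separate totals of each experiment. They do not show that a gene's 2 changes were linked, and the same counts were not made over all genes kept. Across the 37 genes the 2 changes were weakly related (Pearson r 0.25, Spearman rho 0.28), beside r 0.10 over all genes kept in both tables. The experiments share no library, and these coefficients are descriptions across genes, which are not independent replicates.

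**Figure D3:**
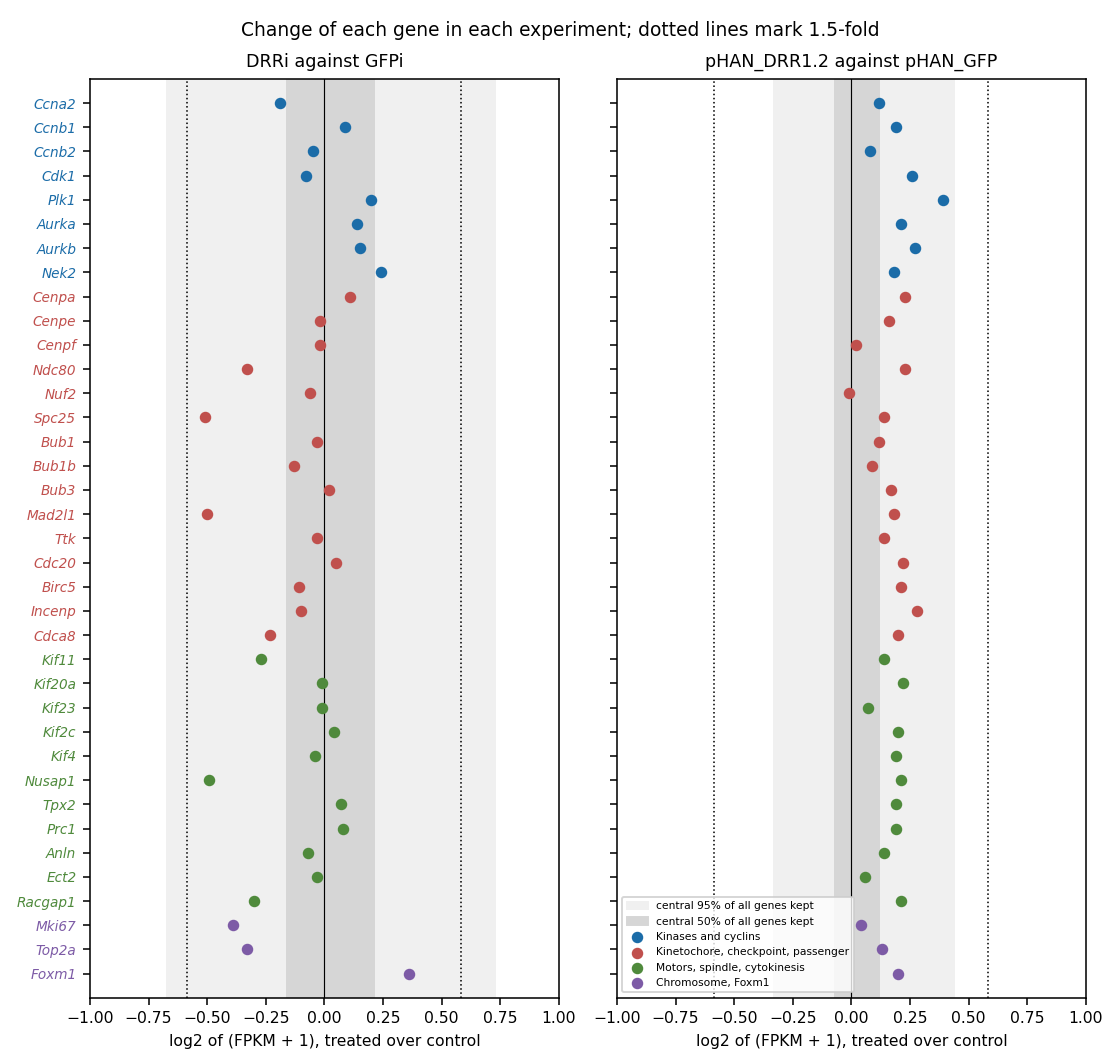
Log2 change of each of the 37 genes (x axis, log2 of FPKM + 1, treated over control) in DRRi against GFPi (left) and pHAN_DRR1.2 against pHAN_GFP (right), with points coloured by role group and shaded bands for the central 95% and 50% of all genes kept. Every member lies inside the dotted 1.5-fold lines, and on the right 36 of 37 lie above 0.

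The members were also divided by their promoter letters. Genes with TTTGAA had a median log2 change of -0.04 in DRRi (23 genes) and genes without it -0.05 (8 genes). In pHAN_DRR1.2 the medians were 0.17 and 0.18.

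Other genes of the mitotic machinery, taken from 4 further lists of kinases and anaphase-promoting complex, centromere, condensin and spindle genes, are given beside the members. Of 95 listed, 91 were kept. In DRRi their median log2 change was -0.05 with 37 above 0 (40.7%, against 53.5% of all genes kept), and 1 was 1.5-fold or more higher and 0 lower (4.66% and 3.5% of all genes kept). The share above 0 differed between the lists, and among the spindle and cytokinesis genes it was 13 of 24 (54.2%). The gene past 1.5-fold was Gtse1, a microtubule-tip protein that also restrains p53, with 25.6 FPKM in GFPi and 48.4 in DRRi (0.89). In pHAN_DRR1.2 the median was 0.15 with 78 above 0 and 13 not (85.7% above, against 55.6% of all genes kept), and 0 passed 1.5-fold in either direction. DNA replication genes, 35 in number, had medians of 0.09 and 0.21 and 21 and 34 genes above 0 (60% and 97.1%, against 53.5% and 55.6% of all genes kept), with 1 gene each way past 1.5-fold in DRRi (Tyms higher, Ccne2 lower) and Tyms alone in pHAN_DRR1.2.

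Among 21 regulators of mitotic transcription, 1 was 1.5-fold or more higher in DRRi and 1 lower, shares near the 4.66% and 3.5% of all genes kept. Cdkn1a had 71.1 FPKM in GFPi and 146.4 in DRRi (1.03), and E2f2, an E2F activator of cell cycle genes, at 16.1 against 31.9 (-0.94). In pHAN_DRR1.2 none of the 21 passed 1.5-fold, with Cdkn1a at 187.1 against 150 FPKM (0.32). Their part in the members' values was not tested.

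The identity and yield of the libraries were checked on all genes. The myoblast markers Myod1, Des, Cdh15, Chrna1 and Myf5 were present in all 4 libraries, from 8.75 FPKM upward. Markers of endothelium (Pecam1, Cdh5, Kdr), of fat (Adipoq, Plin1) and of epithelium (Epcam, Krt8, Krt18, Cdh1), and Ptprc, Gfap and Sox10, were all under 1 FPKM. Cd68 (1.58 to 2.52 FPKM) and Tubb3 (24.5 to 91.0) were not. Summed FPKM ran from 383310.6 to 411625.9 per library, and read depth is unknown because the tables hold no counts. Myog had 10.2 FPKM in GFPi, 2.61 in DRRi, and stood at 65.8 in pHAN_DRR1.2 against 26.3 in pHAN_GFP.

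The third question was where MyoD, MyoG and H3K4me1 lie at these loci, which are spread over 16 chromosomes and have a median length of 26.6 kb (24.6 kb for expressed genes). Peaks were assigned to a locus within 10 kb of it, and their scores are the authors' own. Loci are the deposited intervals, some of which overlap loci of neighbouring genes. MB_MyoD peaks lay at 14 of 37 loci (37.8%, exact 95% Clopper-Pearson interval 22.5 to 55.2), against 45.3% of 10878 expressed genes and 34.3% of all genes. MT_MyoD peaks lay at 23 loci (62.2%, interval 44.8 to 77.5), against 73.9% of expressed genes and 56% of all genes. MT_MyoG peaks lay at 22 loci (59.5%, interval 42.1 to 75.2), against 69.9% and 52.9%. All 3 shares stood below those of expressed genes, which lay inside the intervals. For expressed genes with loci of the members' range of lengths the shares were 41.8%, 72.9% and 68.7%. Peaks that overlapped the locus itself were found at 8, 15 and 12 members, against 32.2%, 57.2% and 50.7% of expressed genes. Peaks within 10 kb that scored at or above the median of their list were found at 7, 14 and 13 members, against 28.1%, 52.5% and 47.3%. The intervals cover counting error alone. All 14 loci with an MB_MyoD peak also had an MT_MyoD peak within 10 kb, as did 4719 of the 4929 expressed genes with an MB_MyoD peak.

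**Figure D4:**
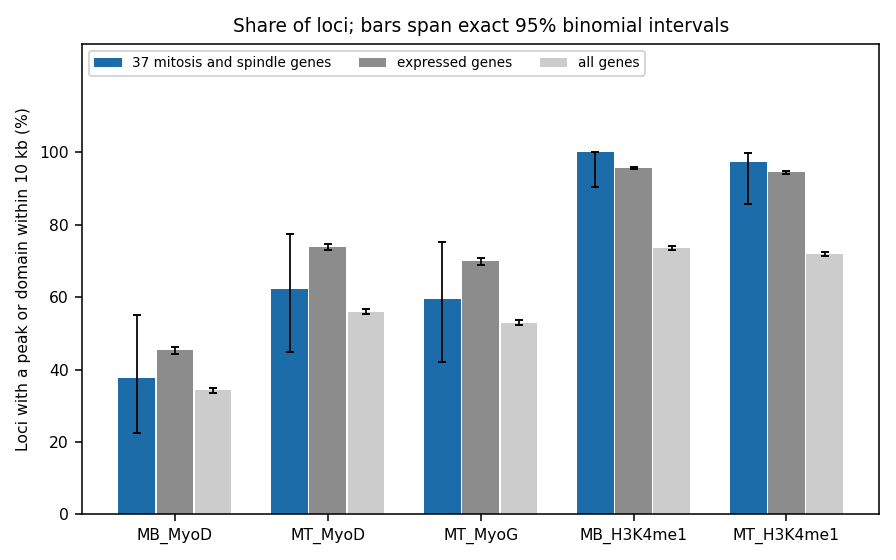
Share of gene loci (y axis, %) with a peak or domain of each of the 5 deposited lists within 10 kb, for the 37 mitosis and spindle genes (blue), expressed genes (dark grey) and all genes (light grey), with exact 95% binomial intervals. The share of the 37 genes with MyoD or MyoG peaks lies between those of all genes and of expressed genes, and nearly every locus has H3K4me1.

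A peak of MyoD or MyoG was found at 26 of the 37 loci (70.3%), against 80.9% of expressed genes. By role it was found at all 8 loci of kinases and cyclins, at 8 of 15 loci of kinetochore, checkpoint and passenger genes, at 8 of 11 loci of motors, spindle and cytokinesis and at 2 of the remaining 3. All 3 factor lists had a peak at 14 loci (37.8%, near the 40.9% of expressed genes), namely Ccna2, Cdk1, Plk1, Aurkb, Cenpf, Ttk, Cdc20, Birc5, Kif4, Nusap1, Tpx2, Ect2, Racgap1 and Foxm1. The 5 loci Ccnb2, Aurka, Cenpa, Prc1 and Mki67 had peaks of both factors in myotubes and no MyoD peak in myoblasts. In all, 9 loci had an MT_MyoD peak and no MB_MyoD peak (24.3%, against 30.5% of expressed genes). MT_MyoD alone was found at Ccnb1, Nuf2, Bub1b and Kif20a, and MT_MyoG alone at Nek2, Ndc80 and Kif2c. MT_MyoD without MT_MyoG was found at 10.8% of members and 9.84% of expressed genes. MT_MyoG without MT_MyoD was found at 8.11% and 5.79%. The Kif20a peak also overlaps the loci of Brd8 and Cdc23, and its distance from Kif20a itself is not known here. The 11 loci without a peak (29.7%, against 19.1% of expressed genes) were Cenpe, Spc25, Bub1, Bub3, Mad2l1, Incenp, Cdca8, Kif11, Kif23, Anln and Top2a.

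The deposited Ccna2 locus had the strongest myotube peaks of the set. An MB_MyoD peak at chromosome 3, 36450135 to 36450789 (mm9), had a score of 162.0, near the middle of its list (percentile 50.1). At the same place MT_MyoD had a peak from 36449871 to 36451279 with a score of 3100.0 (percentile 99.2), a score shared by other peaks of that list, and MT_MyoG one from 36449982 to 36450918 with the highest score of its list, 3230.1. The MT_MyoD peak lies 0.248 kb outside the deposited Ccna2 locus, near an end where that locus also overlaps the locus of Exosc9. Which of these genes the peak lies nearer to is therefore not known here. Scores rank peaks within a list, so the stages are not compared by them.

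Several other members had a high-scoring peak. At Cdk1 an MT_MyoD peak of score 2215.4 (percentile 97.0) lay 9.61 kb from the locus, at chromosome 10, 68788889 to 68789776. Inside the Kif4 locus, at chromosome X, 97911228 to 97912127, the MB_MyoD peak had a score of 2273.8 (percentile 98.1), and the MT_MyoD peak at that site stood at percentile 55.3. Inside Plk1, at chromosome 7, 129310527 to 129311345, the MB_MyoD peak stood at percentile 88.0 (score 807.3) and its MT_MyoD counterpart at percentile 86.7 (score 835.3). Racgap1 had an MT_MyoD peak of score 1061.3 (percentile 89.9) within the locus, at chromosome 15, 99478512 to 99479372, beside an MT_MyoG peak at percentile 86.2. Most peaks at these loci were weaker, with a median percentile of 47.2 for MB_MyoD, 25.5 for MT_MyoD and 49.8 for MT_MyoG within their lists.

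Peaks at an end of a deposited locus were also counted. Some loci, such as those of Kif20a and Cdc20, overlap loci of neighbouring genes. Such an end need not be where the member's transcript starts or stops. An MT_MyoD peak lay within 1 kb of a locus end for 12 members, against 38.8% of expressed genes, an MB_MyoD peak for 6, against 15.1%, and an MT_MyoG peak for 8, against 30.1%. They included Birc5, with MB_MyoD, MT_MyoD and MT_MyoG peaks over the locus end at chromosome 11, 117710550 (MT_MyoD score 622.5). Ect2, Ttk, Cdc20 and Foxm1 likewise had peaks of all 3 lists within 1 kb of an end. At Cdc20 and Foxm1 these peaks also overlapped a neighbouring locus, Elovl1 and 4933413G19Rik. Of the 46 pairs of an MT_MyoD peak and a member locus, 13 had the peak inside another gene's locus, and at Prc1 all MT_MyoD and MT_MyoG peaks lay in Rccd1 or Unc45a.

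**Figure D5:**
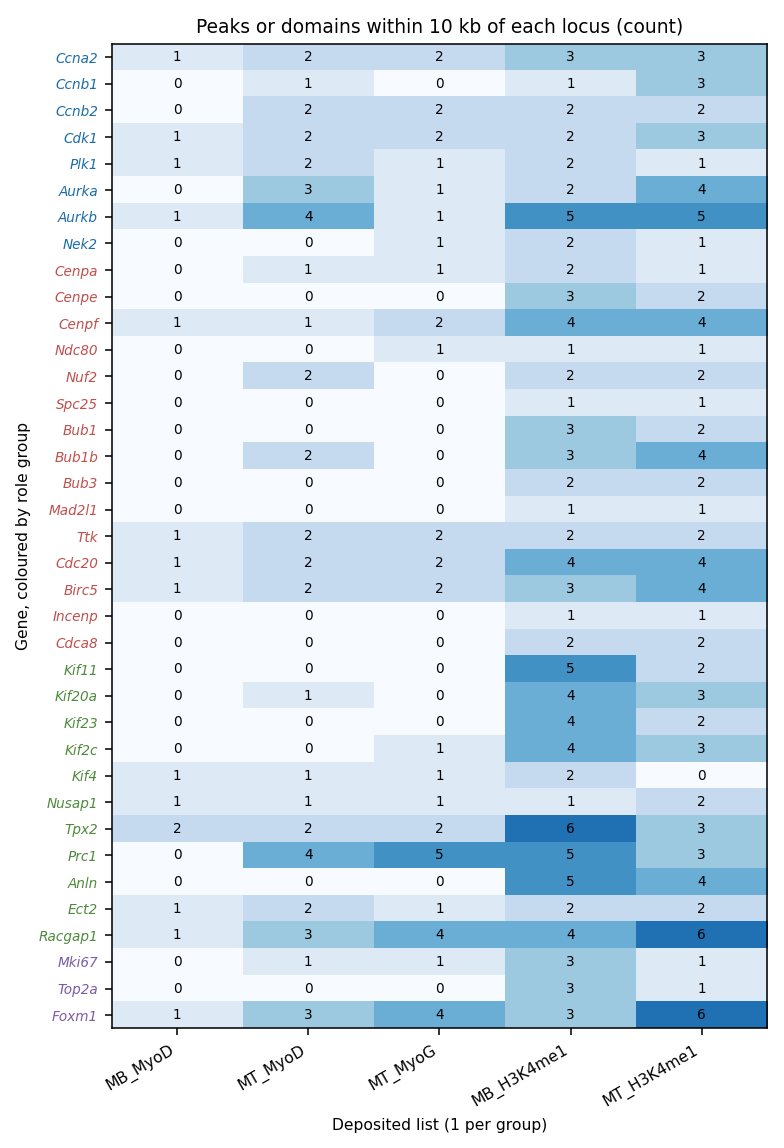
Number of peaks or domains within 10 kb of each of the 37 loci (rows, coloured by role group as kinases and cyclins in blue, kinetochore, checkpoint and passenger genes in red, motors, spindle and cytokinesis in green and the remaining 3 genes in purple) in the 5 deposited lists (columns). Counts of MyoD and MyoG peaks run from 0 to 5, with 0 in all 3 factor lists at 11 loci, and only Kif4 lacks a domain in a H3K4me1 list.

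The presence of a factor peak was set against the change of expression. The peaks come from myoblasts or from myotubes at 48 h, and the expression changes from treated and control cells at 4 h. Medians by peak were not computed for all expressed genes. Members with an MT_MyoG peak had a median log2 change of -0.03 in DRRi (22 genes) and those without one -0.07 (15 genes). In pHAN_DRR1.2 the medians were 0.20 and 0.14. With and without MB_MyoD, the medians were -0.03 and -0.05 in DRRi and 0.20 and 0.17 in pHAN_DRR1.2. With and without MT_MyoD, they were -0.03 and -0.08 in DRRi and 0.19 and 0.16 in pHAN_DRR1.2.

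H3K4me1 domains lay within 10 kb of all 37 loci in myoblasts (against 95.7% of expressed genes and 73.6% of all genes) and of 36 in myotubes (against 94.5% and 72%). Domains with a fold at or above the median of their list lay within 10 kb of 26 loci in myoblasts and 30 in myotubes, against 75.8% and 81.3% of expressed genes. Kif4 was the locus without a myotube domain, with 2 domains in myoblasts and 0 in myotubes. The domains covered less of these loci, with 10 kb on each side, than of expressed genes at large, with a median of 12.7% against 17.4% in myoblasts and 11.6% against 19.6% in myotubes. Cover was larger in myoblasts at 18 loci, larger in myotubes at 16 and equal at 3. That count was not made for expressed genes, whose median cover was 17.4% in myoblasts and 19.6% in myotubes. Cover was 12.7% in myoblasts and 30% in myotubes at Ccna2 and 15.2% and 33.0% at Aurka. It was 16.6% and 32.4% at Ccnb1 and 21.8% and 36.0% at Foxm1. In the other direction it was 44.7% and 30.4% at Birc5, 15.0% and 2.44% at Kif11 and 50% and 38.5% at Aurkb. It was 27.3% and 15.8% at Prc1, 22.2% and 10.7% at Cenpa, 21.5% and 10.3% at Mki67 and 15.3% and 6.46% at Kif23. Top2a was at 10.4% and 10.1%. Windows of neighbouring genes overlap, and domains were called separately in each library, so cover follows how much was called. In all, 104 domains over 249699 bases lay at the loci in myoblasts and 93 over 233615 bases in myotubes, and the median over loci of the strongest domain's fold over control was 2.62 and 3.42.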

How the data were processed

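The authors deposited 2 tables of FPKM per coding sequence, 1 per experiment, with their own p-value and q-value, in the layout of a Cuffdiff comparison, per the file headers; TopHat, SICER and mm9 are named in the submitters' processing notes. The condition named for GFP was taken as the control and the other, named differently in the tables than in the labels, as DRRi or pHAN_DRR1.2. The deposited MyoD and MyoG peaks carry a score by MACS, per the file headers. The deposited H3K4me1 domains carry read counts of the ChIP and of its control and a fold ratio. Versions, settings and depth are not given in the sources used here. The labels name 2 ChIP-seq runs for each factor sample and 1 peak list is given for each; whether runs were combined is not given in the sources used here.

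FPKM were summed per gene symbol, genes whose mean over both conditions reached 1 FPKM were kept, and log2 changes used a pseudocount of 1, which understates changes of low genes. Called means 1.5-fold or more. With 1 sample per group no test was made. Expressed genes are those kept in either table. Steps were tested on simulated data. Coordinates are mm9, counted from 1 for peaks and as deposited for loci; promoters are GRCm38.p6 and were not joined by position. Members, lists and the naming rule (every member, with full values for the 5 highest and lowest and any called) were chosen with earlier results of these data known. Python 3.11.15, numpy 2.4.6, pandas 2.3.3 and scipy 1.17.1 were used. The ribosome-depleted RNA of 2 samples was not analysed here.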

Additional observations from a re-analysis of the deposited data

How the results depend on the processing

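No paired analysis was possible because each group is 1 sample. The members' median log2 change was -0.03 to -0.05 in DRRi and 0.17 to 0.19 in pHAN_DRR1.2 under a pseudocount of 0.1, no filter, a minimum mean of 5 FPKM, the most abundant coding sequence alone and centring on the median of all genes, and 11 to 12 and 35 to 36 members lay above 0. Under these settings none passed 1.5-fold except Bub1, whose most abundant coding sequence stood at -1.75 in pHAN_DRR1.2 and made 1 member lower; without Bub1, an alternative added after seeing the data, the median stayed at 0.19. By unadjusted p-value in the authors' deposited table, Plk1 was the 1 member under 0.05 in pHAN_DRR1.2.

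Counts over all genes moved more. In pHAN_DRR1.2, 148 genes higher and 70 lower became 230 and 120 with a pseudocount of 0.1 and 90 and 40 with a minimum mean of 5 FPKM, and 113 were lower with the most abundant coding sequence alone. In DRRi, 493 higher became 320 with a minimum mean of 5 FPKM; the filter leaves fewer genes. Loci with MB_MyoD, MT_MyoD and MT_MyoG peaks numbered 8, 15 and 12 by overlap with the locus itself (32.2%, 57.2% and 50.7% of expressed genes), and 7, 14 and 13 with peaks at or above the median score (28.1%, 52.5% and 47.3%). Without peaks that overlap another gene's locus, added after seeing the data, they numbered 10, 18 and 19. H3K4me1 lay at 26 to 37 loci under the settings tried. Read depth is unknown, so the counting error of these differences cannot be computed.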
